A study of Homo sapiens with 8 samples.

Results

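PMEPA1 and the core genes of transforming growth factor beta (TGF-beta) signalling were examined in MIA PaCa-2, a long-established cell line from a human pancreatic ductal adenocarcinoma. The cells had been sorted by flow cytometry into a fraction that lactic acid enters slowly (PHLac-low) and one that it enters fast (PHLac-high). This permeability served as a measure of metabolic rate. The genes were chosen by symbol: PMEPA1, SKI, SKIL, the SMAD genes, the 3 TGFB ligand genes and the 3 TGFBR receptor genes. Of 17 annotated genes with such a symbol, 7 are in the deposited table of 3666 genes: PMEPA1, SKI, SMAD3, SMAD6, TGFB1, TGFB3 and TGFBR3. The other 10 (SKIL, SMAD1, SMAD2, SMAD4, SMAD5, SMAD7, SMAD9, TGFB2, TGFBR1 and TGFBR2) were not analysed here. Each fraction had 4 libraries, paired by repeat number. All cells were of the wild-type line with no treatment label, and both fractions had passed through the same brief exposure to lactate-containing medium and washout that the sort requires. The fractions are extremes of 1 line, and the labels do not say whether the repeats were separate cultures, so the spread between them may be technical.

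TGF-beta ligands bring together type I and type II receptor kinases, which phosphorylate the receptor-activated SMAD proteins. These enter the nucleus with SMAD4 and regulate transcription, and several of the induced genes encode inhibitors of the same pathway. Bone morphogenetic proteins (BMPs) use related receptors and other SMAD proteins. In pancreatic cancer the pathway is known both for growth restraint and for epithelial-mesenchymal transition.

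The values are normalised counts, that is read counts that the authors divided by 1 size factor per library. Between 8979276 and 23176205 reads per library fell in the listed genes, which is part of each library and not its depth. The table holds only genes whose adjusted p in the authors' deposited table was at most 0.05 for this same contrast, so 100% of its genes were called. PMEPA1 was in addition picked out for its increase. The differences between fractions are therefore given as a description, with estimates and standard errors and no test. The PHLac-low library of repeat 4 stood apart on the first principal component (-6.88, against -24.5 to -25.9 for the other PHLac-low libraries), as did its PHLac-high partner (33.4, against 14.1 to 18.5). Values without repeat 4 are given for PMEPA1 and TGFB3, the core genes whose log2 change they shifted most. Of the epithelial markers EPCAM, CDH1, KRT8, KRT18 and KRT19, only KRT19 is in the table, at 14889.8 to 22697 normalised counts in PHLac-low and 14790.3 to 24031 in PHLac-high. None of the fibroblast and stellate cell markers PDGFRA, PDGFRB, LUM, DES, FAP and THY1 is in it, and as unlisted genes were not analysed here this says nothing of their level. ACTA2, COL1A1 and COL3A1, which such cells also express strongly, are in the table among the TGF-beta induced genes and were lower in PHLac-high.

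PMEPA1 was over 4 times as abundant in PHLac-high as in PHLac-low cells. PMEPA1 (Entrez 56937, chr20:57648392-57711536 on the minus strand, GRCh38) encodes a transmembrane protein that is induced by TGF-beta and by androgen and restrains SMAD signalling. Its normalised count was 395, 617, 428 and 760.0 in PHLac-low (repeats 1 to 4, in this order throughout) and 2994, 2796, 1884 and 1982 in PHLac-high. Every PHLac-high library was above every PHLac-low library, and the nearest values, from repeat 4 low and repeat 3 high, were still far apart. The means were 550.0 ± 171 and 2414 ± 563 (SD, n = 4). Within repeats the log2 change was 2.92, 2.18, 2.14 and 1.38, so it was largest in repeat 1 and smallest in repeat 4. The limma estimate with the repeat as a block was 2.15 ± 0.20 (SE), a 4.45-fold difference, and 2.41 without repeat 4. In bulk libraries of a sorted fraction, more cells with the transcript and more transcript per cell cannot be told apart.

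The authors' deposited table gives PMEPA1 a log2 fold change of 2.15, which ranks 39th among the 2156 genes higher in PHLac-high, and an adjusted p of 8.77e-11. Exons of PMEPA1 overlap NKILA (Entrez 105416157), a noncoding RNA gene on the opposite strand that is known as an inhibitor of NF-kappaB. Libraries were made to keep strand, but whether reads were counted by strand is not given in the sources used here. The same holds for SMAD3, TGFB1 and TGFB3, whose exons overlap AC087482.1, HNRNPUL1 and TGFB3-AS1 on the opposite strand. NKILA had 15.4, 29.5, 26.4 and 40.1 normalised counts in PHLac-low and 45.6, 48.6, 38.2 and 87.4 in PHLac-high, a log2 change of 0.96 ± 0.25 (SE). Its highest library, repeat 4 of PHLac-high, was below the lowest PMEPA1 value of any library. NKILA was chosen after its values were seen.

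**Figure D1:**
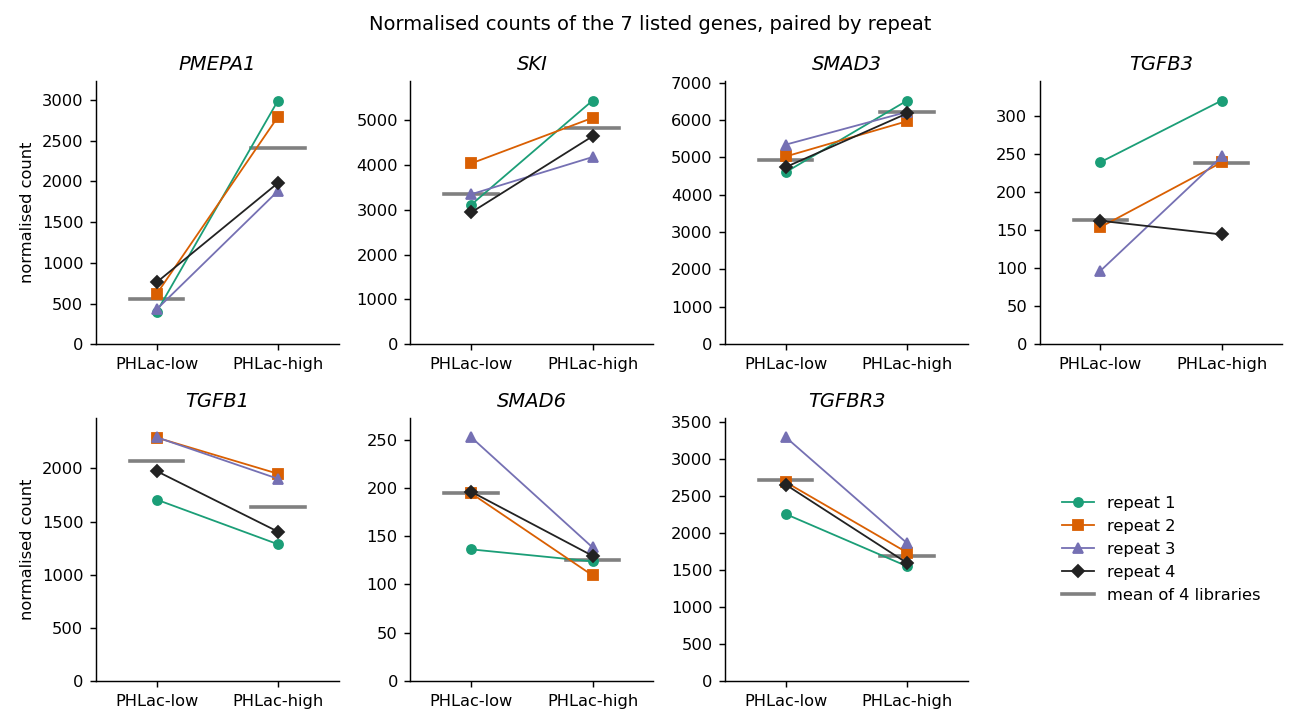
Normalised count (vertical axis, from 0) of each listed gene in the PHLac-low and PHLac-high library of each repeat; lines join the libraries of a repeat and grey bars are means of 4 libraries. PMEPA1, SKI and SMAD3 were higher in every PHLac-high library than in any PHLac-low library, TGFBR3 was lower in every one, and TGFB3 was lower in PHLac-high only in repeat 4.

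Upstream sequence was examined because SMAD3 and SMAD4 are known to bind a short CAGAC box and a GGCGCC palindrome. RefSeq (GRCh38.p14) gives 14 windows of 250 bases before an annotated start for 6 of the 7 genes, 4 of them for PMEPA1. SKI had no window. CAGAC, searched on both strands (as CAGAC or GTCTG), was in 5 of the 14 windows (35.7%), including 2 of the 4 of PMEPA1, against 38% of 35116 windows of all genes. GGCGCC, which reads the same on both strands and does not overlap CAGAC, was in 2 of the 14 (14.3%), against 16.4% of all. In the 4021 windows of the listed genes the shares were 36.2% for CAGAC and 23.9% for GGCGCC. The counts are per gene and do not say which start was used. The 5 windows that hold CAGAC are printed 5′ to 3′ on the strand of the gene, in lower case with each CAGAC or GTCTG in capitals.
PMEPA1, chr20:57710578-57710827, minus strand: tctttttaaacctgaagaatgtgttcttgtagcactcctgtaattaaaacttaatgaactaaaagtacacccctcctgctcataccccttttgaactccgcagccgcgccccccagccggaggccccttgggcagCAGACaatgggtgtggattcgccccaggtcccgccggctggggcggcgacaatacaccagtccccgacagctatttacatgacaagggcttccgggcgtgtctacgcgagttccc
PMEPA1, chr20:57690687-57690936, minus strand: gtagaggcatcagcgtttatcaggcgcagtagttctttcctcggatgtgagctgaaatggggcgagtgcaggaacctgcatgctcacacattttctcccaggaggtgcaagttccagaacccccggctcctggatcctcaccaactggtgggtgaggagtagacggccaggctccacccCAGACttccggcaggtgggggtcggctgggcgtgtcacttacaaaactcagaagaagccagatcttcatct
SMAD3, chr15:67137771-67138020, plus strand: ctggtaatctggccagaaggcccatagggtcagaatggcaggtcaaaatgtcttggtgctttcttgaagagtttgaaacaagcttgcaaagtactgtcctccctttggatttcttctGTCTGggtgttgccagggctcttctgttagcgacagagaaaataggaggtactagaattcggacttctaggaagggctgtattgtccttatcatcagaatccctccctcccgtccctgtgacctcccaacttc
SMAD3, chr15:67166281-67166530, plus strand: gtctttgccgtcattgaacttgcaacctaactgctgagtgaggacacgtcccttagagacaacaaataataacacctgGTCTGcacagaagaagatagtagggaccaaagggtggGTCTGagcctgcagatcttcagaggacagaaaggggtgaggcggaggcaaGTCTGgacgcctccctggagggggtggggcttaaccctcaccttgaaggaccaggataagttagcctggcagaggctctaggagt
TGFB3, chr14:75983012-75983261, minus strand: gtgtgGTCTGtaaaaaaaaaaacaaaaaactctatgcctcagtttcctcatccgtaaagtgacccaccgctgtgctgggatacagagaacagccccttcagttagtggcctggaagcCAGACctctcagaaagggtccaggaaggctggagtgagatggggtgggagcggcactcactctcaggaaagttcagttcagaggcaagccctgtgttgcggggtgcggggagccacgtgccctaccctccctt
In PMEPA1 the box begins 115 bases before one start and 71 bases before the other. The first of these windows lies within exons of NKILA on the other strand. The last SMAD3 window holds 3 boxes, at 172, 135 and 85 bases before its start, and the TGFB3 window holds 2, at 245 and 133 bases. A match of these letters is a description and not a binding site.

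Among the transducers and their nuclear partners, SMAD3 and its corepressor SKI were higher and the inhibitory SMAD6 was lower in PHLac-high. SMAD3 (Entrez 4088, chr15:67063763-67195195), the receptor-activated SMAD of TGF-beta and activin, had 4606, 5026, 5343 and 4742 normalised counts in PHLac-low and 6523, 5970.3, 6218 and 6179 in PHLac-high. The groups did not overlap, and the spread within each was narrow. The log2 change was 0.34 ± 0.06 (SE), from means of 4929 ± 326 to 6223 ± 228 (SD, n = 4). It was 0.11 when each library was scaled by the upper quartile of its listed genes, and 0.20 after correction for transcript GC content. Both steps were computed from the listed genes alone, which were selected on this contrast, with 58.8% of them higher in PHLac-high. They take out part of any shift that these genes share, real or not, here and for every gene below.

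SKI (Entrez 6497, chr1:2228695-2310119), which encodes a corepressor that binds SMAD proteins, had 3114, 4037, 3348 and 2943 normalised counts in PHLac-low and 5442, 5055, 4179.8 and 4644 in PHLac-high. The highest PHLac-low library, repeat 2, lay just under the lowest PHLac-high library, repeat 3. Within repeats the log2 change of SKI was 0.81, 0.32, 0.32 and 0.66, and the estimate was 0.53 ± 0.09 (SE), a 1.44-fold difference. Upper-quartile scaling gave 0.30 for SKI and GC correction 0.70.

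SMAD6 (Entrez 4091, chr15:66702228-66782848), an inhibitory SMAD that acts chiefly on the BMP branch, was sparse, with 136, 194, 253 and 196 normalised counts in PHLac-low and 124, 109, 138 and 129.7 in PHLac-high. The PHLac-low library of repeat 1 was low and fell inside the PHLac-high range, so the groups overlapped. Its log2 change was -0.60 ± 0.16 (SE). By repeat it was -0.14, -0.82, -0.86 and -0.59, smallest in repeat 1.

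The ligand genes went in opposite directions, and the coreceptor was lower. TGFB1 (Entrez 7040, chr19:41301587-41353911), the most widely expressed ligand gene, had 1707, 2291, 2294 and 1975 normalised counts in PHLac-low and 1286, 1949.9, 1903 and 1405 in PHLac-high. The groups overlapped, since repeats 2 and 3 were high in both fractions and repeat 1 was low in both. Within every repeat TGFB1 was lower in PHLac-high, with log2 changes of -0.41, -0.23, -0.27 and -0.49, and the estimate was -0.35 ± 0.07 (SE). TGFB1 is rich in GC (63.5%, higher than 90.7% of the listed genes), and its log2 change was -0.07 after GC correction and -0.57 after upper-quartile scaling.

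TGFB3 (Entrez 7043, chr14:75958099-75982991), another ligand gene, had only 239, 154, 96.4 and 162 normalised counts in PHLac-low and 320.4, 239, 247 and 144 in PHLac-high. It was higher in PHLac-high in repeats 1 to 3 and lower in repeat 4, with log2 changes of 0.42, 0.63, 1.35 and -0.17. The estimate was 0.56 ± 0.22 (SE), 0.80 without repeat 4, 0.29 without repeat 3 and 0.34 after upper-quartile scaling. The authors' deposited table gives TGFB3 an adjusted p of 0.0324, the nearest of the 7 genes to the limit of the table. Genes outside that limit were not analysed here.

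TGFBR3 (Entrez 7049, chr1:91680343-91906335) encodes betaglycan, a coreceptor that presents TGF-beta to the signalling receptors. It had 2256, 2687, 3295 and 2653 normalised counts in PHLac-low and 1549, 1735, 1861 and 1593 in PHLac-high, with no overlap between the groups. The PHLac-low libraries were spread, with repeat 3 highest, while the PHLac-high libraries lay close together. The log2 change of TGFBR3 was -0.68 ± 0.07 (SE), 1.61-fold lower in PHLac-high, and -0.54, -0.63, -0.82 and -0.74 by repeat. With GC correction it was -0.92 and with upper-quartile scaling -0.91.

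Of the 7 genes, 4 were higher and 3 lower in PHLac-high, while 58.8% of all listed genes were higher and 41.2% lower. Only PMEPA1 had an absolute log2 change of at least 1, as did 11.1% of listed genes (5.92% higher and 5.21% lower). The next largest, TGFBR3, was at -0.68. The groups did not overlap for 4 of the 7 (36.7% of listed genes), and the direction was the same in all 4 repeats for 6 of the 7 (96.1%). The median log2 change was 0.34 over the 7 genes and 0.25 over all listed genes. Upper-quartile scaling lowers the median of all listed genes to 0.02, with 54.1% of listed genes higher, and GC correction to 0.04, with 55.8% higher. The 7 genes had the same directions under both. These counts come from the contrast that selected the table and are read as a description.

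Levels of different genes were compared per kilobase of exon (union of annotated exons, GENCODE 29). In PHLac-low, TGFB1 (638 ± 87.3 normalised counts per kb, SD, n = 4), SKI (553 ± 79.1) and SMAD3 (541 ± 35.8) were the highest and overlapped in range. TGFBR3 followed at 313 ± 49.3 and PMEPA1 at 97.9 ± 30.4, each apart from its neighbours in this order. TGFB3 (33.2 ± 11.9) and SMAD6 (22.8 ± 5.55) were the lowest and overlapped. In PHLac-high, PMEPA1 reached 429.6 ± 100.2 per kb, a level whose range overlapped that of TGFB1 (505 ± 105) and lay above that of TGFBR3 (194 ± 16.3). SKI (794 ± 89.2) and SMAD3 (683 ± 25) were the highest in that fraction and overlapped. Exon lengths are those of the annotation and may include exons not used in these cells.

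**Figure D2:**
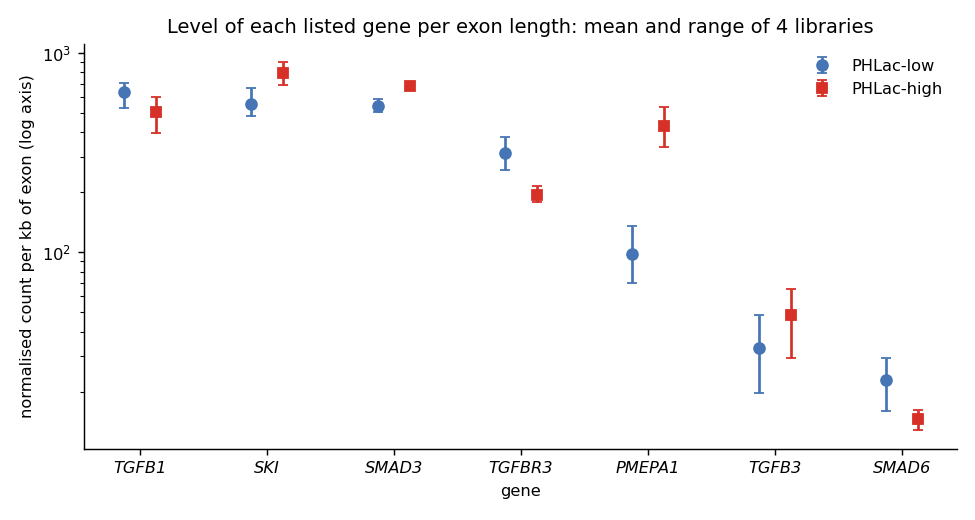
Normalised count per kb of exon (vertical log axis) of the 7 listed genes in PHLac-low (circles) and PHLac-high (squares); points are means and bars run from the lowest to the highest of 4 libraries. PMEPA1 lay below TGFBR3 in PHLac-low and above it in PHLac-high, and SMAD6 was the lowest gene in both fractions.

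The difference between repeats is independent of the difference between fractions in this balanced design and could be tested, although the residual spread that enters the test also entered the selection of the table. In limma's moderated F test of the repeat term with Benjamini-Hochberg adjustment, 57.6% of listed genes differed between repeats (58.1% with edgeR, and 32.6% in limma without repeat 4). Among the 7 genes 2 passed, TGFB1 (limma adjusted p = 0.00505) and TGFBR3 (limma adjusted p = 0.0304), and both passed with edgeR. Averaged over both fractions, TGFB1 spanned 0.51 on the log2 scale, from repeat 1 to repeat 2, and TGFBR3 0.41, from repeat 1 to repeat 3. The TGFBR3 call was lost without repeat 1 (limma adjusted p = 0.0994) and without repeat 3 (limma adjusted p = 0.211). PMEPA1 spanned 0.55 and did not pass (limma adjusted p = 0.335). For SMAD3, the span was 0.09 (limma adjusted p = 0.772), the narrowest of the 7. TGFB3 had the widest span, 0.85, at low counts (limma adjusted p = 0.105), and passed without repeat 3 (limma adjusted p = 0.0408) and without repeat 4 (limma adjusted p = 0.0459).

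Lists of related genes show what else of the pathway is in the table. Among the genes named from them, exons of CHRD, LTBP2, RGMB, SMURF2, NEDD4L, ACTA2, JUNB, ID2, BHLHE40 and CDKN1A overlap a gene on the opposite strand. Exons of RGMA, NRROS, RNF111, COL3A1 and USP15 overlap one on the same strand. The counts of all these genes could hold reads of both. Of 51 ligands and extracellular regulators, 8 are listed, 3 higher and 5 lower in PHLac-high, with a median log2 change of -0.57 (0.25 over all listed genes, 58.8% of them higher). GDF15 (Entrez 9518), a divergent family member that signals through another receptor, was 10985 ± 4553 in PHLac-low and 4094 ± 2105 in PHLac-high (normalised counts, SD, n = 4), a log2 change of -1.51 ± 0.10 (SE). LTBP4, which binds latent TGF-beta in the matrix, differed by -0.60 ± 0.07, and its relative LTBP2 by 0.44 ± 0.07. NRROS, which holds latent TGF-beta at the cell surface, differed by -0.54 ± 0.07. On the BMP side, the log2 change was -0.66 ± 0.12 for the antagonist CHRD and -0.67 ± 0.14 for the ligand BMP5 (SE). After GC correction LTBP4 was at -0.25, CHRD at -0.32 and LTBP2 at 0.50. After upper-quartile scaling LTBP4 was at -0.825, CHRD at -0.88 and LTBP2 at 0.22. The other 2 listed genes were higher, by 0.28 and 0.37, or by 0.06 and 0.15 after upper-quartile scaling and 0.435 and 0.18 after GC correction. The groups overlapped for all 8, while they did not for 36.7% of all listed genes.

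Of 19 further receptors and coreceptors 4 are listed, 2 higher and 2 lower, and none of the 4 encodes a receptor kinase. Their median log2 change was -0.005, beside 58.8% higher, 41.2% lower and a median of 0.25 over all listed genes. BAMBI (Entrez 25805), a pseudoreceptor without a kinase domain that dampens TGF-beta and BMP signalling, had 45.5, 62.8, 69.5 and 114 normalised counts in PHLac-low and 182, 162, 143 and 295 in PHLac-high. All BAMBI values were low, yet the groups did not overlap, and repeat 4 was highest in both fractions. Its log2 change of 1.43 ± 0.18 (SE) was 1.98, 1.35, 1.03 and 1.36 by repeat. The BMP coreceptor genes RGMA and RGMB went in opposite directions. RGMB differed by 0.72 ± 0.09, from 655 ± 172 to 1061 ± 153 normalised counts (SD, n = 4). RGMA, at 91.5 ± 23.5 and 45.3 ± 13.7, differed by -1.02 ± 0.18. NEO1, which encodes the RGM receptor neogenin, differed by -0.73 ± 0.12 (log2, SE).

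Of 34 intracellular regulators 9 are listed, 7 higher and 2 lower, with a median log2 change of 0.28 and none past 1 in size, beside 58.8% higher and a median of 0.25 over all listed genes. SMURF2 (Entrez 64750), a ubiquitin ligase for SMAD proteins and receptors, went from 3548 ± 575 to 4934 ± 656 normalised counts (SD, n = 4), a log2 change of 0.48 ± 0.07 (SE). NEDD4L (Entrez 23327), a ligase for activated SMAD2 and SMAD3, went from 1491 ± 220.2 to 1136 ± 193, by -0.40 ± 0.08, and by only -0.18 in repeat 4. The groups did not overlap, but the lowest PHLac-low library (1352.7) lay just above the highest PHLac-high library (1333.6). With upper-quartile scaling NEDD4L was at -0.62 and with GC correction at -0.64. The log2 change was 0.47 ± 0.07 for the SMAD coactivator gene CREBBP and 0.28 ± 0.08 for RNF111, which encodes a ubiquitin ligase that degrades SMAD7 and SKIL. USP9X, a deubiquitinase of SMAD4, differed by 0.45 ± 0.10 and the kinase gene HIPK2 by 0.42 ± 0.08 (SE). These increases were of the order of the shift between scalings: with upper-quartile scaling SMURF2 was at 0.26, CREBBP at 0.24, USP9X at 0.23, HIPK2 at 0.19 and RNF111 at 0.06. The other 3 ranged from -0.27 to 0.25, and 1 of the 7 higher genes, USP15 (named after its values were seen), was at -0.01 after GC correction.

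Genes known to be induced by TGF-beta went in both directions. Of 31 such genes 13 are listed, 4 higher and 9 lower in PHLac-high, with a median log2 change of -0.59, beside 58.8% higher, 41.2% lower and a median of 0.25 over all listed genes. The count leaves out induced genes placed in other groups here, among them PMEPA1 itself (higher, 2.15), so it is not a count of the whole response. SNAI2 (Entrez 6591), a repressor that drives epithelial-mesenchymal transition, had 154, 204, 121 and 341 normalised counts in PHLac-low and 869, 784, 719 and 882 in PHLac-high. The groups were well separated, and the PHLac-low library of repeat 4 was the highest of its fraction. Its log2 change of 2.09 ± 0.19 (SE) was close in size to that of PMEPA1. The related SNAI1 differed by 0.84 ± 0.08, from 789 ± 19.2 to 1423 ± 154 normalised counts (SD, n = 4). TGFBI, a secreted matrix protein gene, had 347, 316, 279 and 299 and 839.5, 711, 635 and 459 normalised counts in the 2 fractions. Its PHLac-high value was lowest in repeat 4 and the groups did not overlap, with a log2 change of 1.06 ± 0.12.

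COL3A1, ACTA2 and JUNB were lower in PHLac-high. COL3A1 (Entrez 1281), a fibrillar collagen gene, went from 8179.8 ± 1679.6 to 3740.5 ± 824 normalised counts (SD, n = 4), a log2 change of -1.13 ± 0.06 (SE). ACTA2, the smooth muscle actin gene, differed by -0.98 ± 0.12, from 229.5 ± 53.8 to 116 ± 26.3. JUNB (Entrez 3726), an AP-1 subunit gene, had 29786, 28294, 24145 and 8924 normalised counts in PHLac-low and 13161, 14660.4, 10863 and 6551 in PHLac-high. Both JUNB values of repeat 4 were the lowest of their fractions, and the PHLac-low one lay below the PHLac-high values of repeats 1 to 3. The log2 change of JUNB was -0.93 ± 0.11. Under GC correction it was -0.62 and under upper-quartile scaling -1.16. The 7 other listed genes ranged from -0.81 to 0.57, with 1 higher and 6 lower.

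Of a list of 10 genes known to be induced by BMPs, 5 are in the table. All 5 were higher in PHLac-high, also after upper-quartile scaling and after GC correction, with a median log2 change of 0.91. The count leaves out genes placed in other groups here, such as SMAD6 (lower, -0.60) and BAMBI (higher, 1.43), which act on BMP signalling. Over all listed genes 58.8% were higher, 54.1% after that scaling and 55.8% after that correction, and the median was 0.25. MSX2 (Entrez 4488), a homeobox gene, had 261, 276, 205 and 543 normalised counts in PHLac-low and 1474, 1076, 734 and 2008 in PHLac-high. Repeat 4 was highest and repeat 3 lowest in both fractions, with no overlap between them. Its log2 change was 2.04 ± 0.12 (SE), 2.50, 1.96, 1.84 and 1.88 by repeat. MSX1, its relative, went from 317 ± 31 to 598 ± 71.7 normalised counts (SD, n = 4), by 0.91 ± 0.12. ID2 (Entrez 3398), an inhibitor of helix-loop-helix transcription factors, went from 1949.6 ± 585 to 3772 ± 658, by 0.98 ± 0.08. For its relative ID3 the log2 change was 0.32 ± 0.07, or 0.09 after upper-quartile scaling and 0.37 after GC correction. HEY1, also a target of Notch, differed by 0.58 ± 0.15, with 0.36 after that scaling and 0.39 after GC correction. ID1, ID4, ATOH8, DLX5 and RUNX2 were not analysed here.

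**Figure D3:**
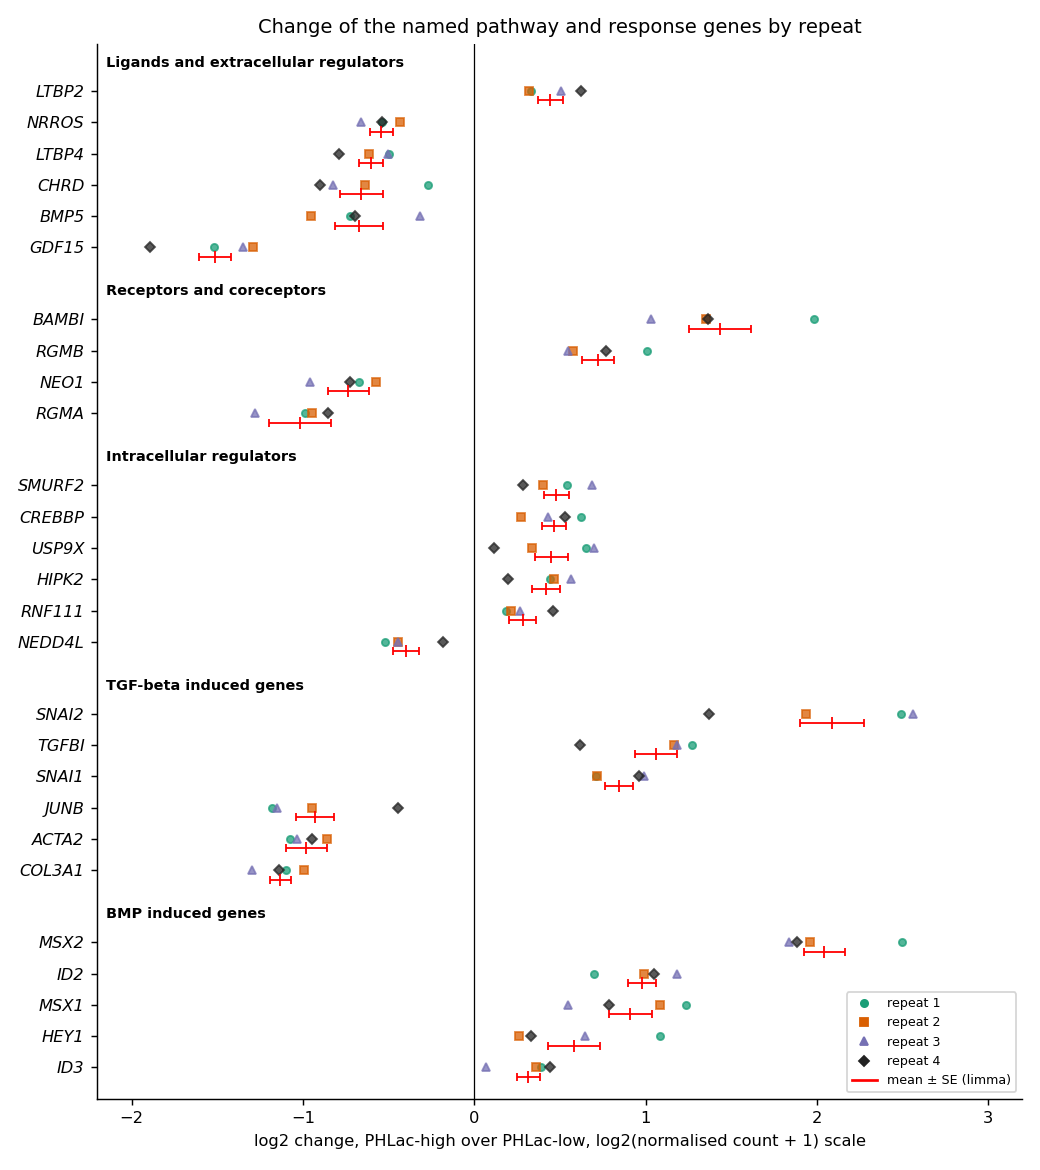
Log2 change of PHLac-high over PHLac-low (horizontal axis, log2 of normalised count + 1) of the named genes of each list in each repeat (symbols), with the limma mean and its SE in red below. The 5 genes of the BMP induced list lie right of 0. The named TGF-beta induced genes lie on both sides, with SNAI2, TGFBI and SNAI1 right of 0 and JUNB, ACTA2 and COL3A1 left of it. Of all 13 listed genes of that list, drawn or not, 4 were higher and 9 lower.

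The listed genes whose pattern was most like that of PMEPA1 were sought by Pearson correlation over the 8 libraries on the log2(normalised count + 1) scale, leaving out genes whose mean was under 100. The highest were DUSP14 (r = 0.997), a dual-specificity phosphatase gene, EXOC8 (0.991), an exocyst subunit gene, and SPATA2 (0.989). IL6R (0.988), the interleukin-6 receptor gene that the series is titled for, MAP2K3 (0.983), a kinase of the p38 pathway, and RABGEF1 (0.982) followed. The 8 libraries form 2 groups that differ for every listed gene, which raises all of these values. After the mean of each fraction was subtracted, the correlation with PMEPA1 was 0.972 for DUSP14, 0.906 for EXOC8, 0.875 for SPATA2, 0.904 for IL6R, 0.855 for MAP2K3 and 0.79 for RABGEF1. These 6 genes were selected for their correlation over the same 8 libraries, so the high values within fractions follow in part from that choice.

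These 6 genes differed from PMEPA1 in the size of the change. IL6R went from 248 ± 60.8 to 1576 ± 319 normalised counts (SD, n = 4), a log2 change of 2.67 ± 0.14 (SE). DUSP14 went from 1188 ± 107 to 1942 ± 142 (SD, n = 4), by 0.71 ± 0.08, and EXOC8 from 722 ± 52.1 to 1283 ± 108, by 0.83 ± 0.09. The log2 change was 0.70 ± 0.07 for SPATA2, 0.94 ± 0.09 for MAP2K3 and 0.47 ± 0.06 for RABGEF1 (0.24 after upper-quartile scaling). Among the 6 other core genes the correlation with PMEPA1 over the 8 libraries was highest for SMAD3 (0.883) and SKI (0.877) and lowest for TGFBR3 (-0.882). Within fractions it was -0.032 for SMAD3, 0.379 for SKI and -0.12 for TGFBR3. No test of these correlations was made.

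**Figure D4:**
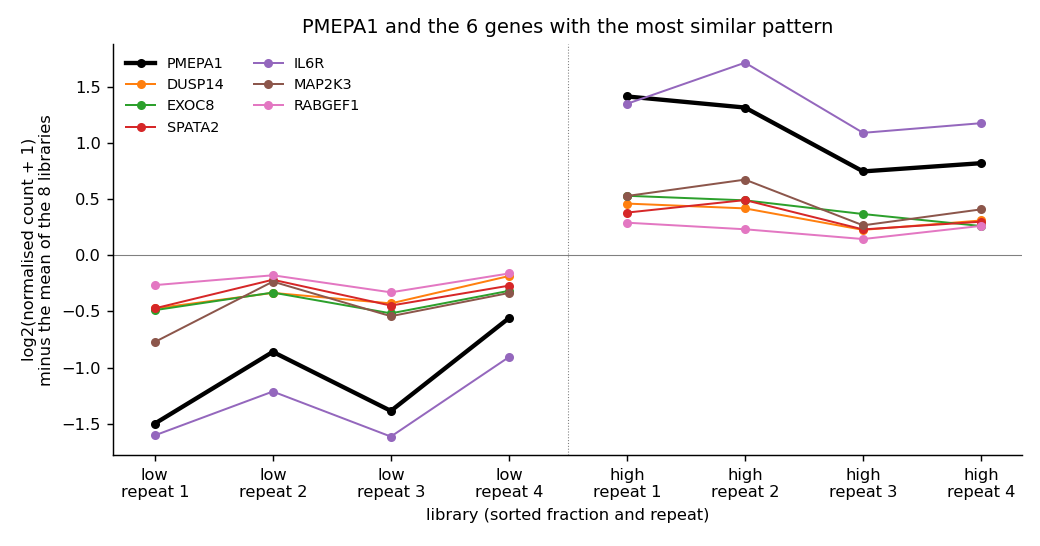
Log2(normalised count + 1) minus the mean of the 8 libraries (vertical axis) for PMEPA1 (black) and the 6 listed genes most like it, in each PHLac-low and PHLac-high library (horizontal axis; lines only join points of a gene within a fraction). Within PHLac-low all 7 genes were higher in repeats 2 and 4 than in repeats 1 and 3, and of the other 6 genes only IL6R spanned a range as wide as that of PMEPA1.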

How the data were processed

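Messenger RNA libraries were made with dUTP strand marking and sequenced paired end, per the labels' protocols. Per the submitters' processing notes STAR, SAMtools, Subread and DESeq2 were used with build hg38. Versions, the strand setting of the counting and the adjustment method are not given in the sources used here. The authors deposited a scaled read signal for 3666 genes in 8 libraries, a log2 fold change and an adjusted p-value. Every value of the deposited signal (100%) was a whole multiple of 1 step per library, within 0.01 read, which gave whole reads and size factors.

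Log2(normalised count + 1) was fitted with limma 3.58.1 (R 4.3.3) with a mean-variance trend and the repeat as a block, as the series describes paired samples. Same-numbered libraries deviated together (correlations across genes 0.534 to 0.763). The repeat term was tested over all listed genes at an adjusted p of 0.05. Alternatives were no block, pseudocount 0.1, upper-quartile scaling, no trend, a mean of at least 100, each repeat left out, edgeR 4.0.16 and DESeq2 1.42.0 on recovered reads, and a GC correction (lowess span 0.3; GENCODE 29, GC known for 3509 genes, 95.7%) added after seeing the data. The upper quartiles and the GC curve were taken over listed genes only, as no others are in the table. The genes, lists and tests were chosen with earlier results of these data known. Of each list the 6 listed genes with the largest change were named, and the 6 genes most like PMEPA1. Some genes of these lists are not reported here. Among the core genes the SE was largest for TGFB3 and PMEPA1.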

Additional observations from a re-analysis of the deposited data

Results flagged for a closer look

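In 126 groups of 4 values (the named genes in PHLac-low, in PHLac-high and as changes within repeats), the gap of the farthest value to its nearest neighbour was compared with the whole range of the group. A value was taken as far out above Dixon's critical value, which chance alone gives for about 1 in 20 groups, here 6.3, and 2 were found. For COL3A1 the PHLac-low library of repeat 4 was the lowest, at 5681 normalised counts, with a gap of 0.889 of the range. For TGFBI the log2 change of repeat 4 was the lowest, at 0.62 (0.839 of the range). None of the 7 core genes was among them.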

How the results depend on the processing

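The log2 change of PMEPA1 stayed within 1 SD of its changes between repeats under every alternative run, from 1.93 with upper-quartile scaling to 2.16 with pseudocount 0.1, and from 1.90 to 2.41 when a replicate was left out. Without the replicate block its estimate is the same, 2.15, by the balanced design, and its SE rises from 0.20 to 0.24. None of the 7 core genes changed direction. SMAD3, TGFB1 and TGFBR3 moved by more than 1 SD under upper-quartile scaling and GC correction, with the values given above. The number of core genes that differed between repeats was 2, and it was 1 without the mean-variance trend and from 1 to 3 when a replicate was left out. A mean of at least 100 left 1 lower gene among the receptors and coreceptors in place of 2, as RGMA falls under it. Of 230 recomputed values, 215 stayed the same by these criteria, 9 moved, 3 passed the threshold of the repeat test (SKI with upper-quartile scaling, at 0.0477, and TGFB3 as given above) and 3 no longer did (all TGFBR3, also without the trend, at 0.0711). The cause was not tested. SMAD6 and TGFB3 had the fewest counts of the core genes.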

Other observations

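Other collagen genes among the TGF-beta induced genes were also lower in PHLac-high, and were named after their values were seen. COL5A1 had 1491, 1948, 2806 and 936 normalised counts in PHLac-low and 983, 1214, 1624 and 418 in PHLac-high, so that repeat 4 was the lowest and repeat 3 the highest of both fractions. Its log2 change was -0.81 ± 0.10 (SE), or -0.63 after GC correction and -1.03 after upper-quartile scaling. COL1A1, at 137 ± 56.6 and 85 ± 29.1 normalised counts (SD, n = 4), differed by -0.64 ± 0.17, and the basement membrane collagen gene COL4A1 by -0.27 ± 0.08. All 4 listed collagen genes of that list were lower under upper-quartile scaling and GC correction too. Over all listed genes 41.2% were lower, and 54.1% were higher after that scaling and 55.8% after that correction. The groups overlapped for COL5A1, COL1A1 and COL4A1.

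BHLHE40, a transcriptional repressor gene of the circadian and hypoxia responses, had 13478, 16848, 18434 and 10116 normalised counts in PHLac-low and 9846, 11462, 12049 and 6035 in PHLac-high, lower in PHLac-high in every repeat. CDKN1A, the cell cycle inhibitor gene, was higher in each repeat, with 2378, 1476, 3218 and 1679 in PHLac-low and 3764, 2916, 3803 and 2200.4 in PHLac-high. Its groups overlapped, and the log2 change was 0.57 ± 0.11 (SE). NOG, which encodes the BMP antagonist noggin, had 876, 1218, 1343 and 1766 and 981, 1538, 1664 and 2209.7. The log2 change of NOG was 0.28 ± 0.07 (SE), or 0.06 after upper-quartile scaling and 0.435 after GC correction. Repeat 4 was the highest NOG library of each fraction and repeat 1 the lowest, and the spread between repeats exceeded the difference between fractions. These genes too were named after their values were seen.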
